A study of Myotis pilosus with 4 samples.

Results

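The 5 miRNAs described here are miR-10-5p, miR-10-3p, miR-100-5p, miR-100-3p and miR-125-3p of the bat Myotis ricketti (labelled Myotis pilosus), which the study listed beside 191 other mature miRNAs. They were chosen by name, and each was looked up by its listed mature sequence among the small RNA tags of 4 libraries: HB (whole brain of hibernating bats), AB (whole brain of active bats, which the labels call aroused), HA (white adipose tissue, WAT, of hibernating bats) and AA (WAT of active bats). All were wild bats with no genetic change or drug, and the study's methods state no age. Each library was made from RNA pooled over several bats, and the study's methods describe both tissues as taken from the same bats, so that HB and HA share their bats, and AB and AA share theirs. There was 1 library for each condition, so every difference below is a difference between 2 libraries and has no p-value. The active bats were caught in autumn and the hibernating bats at the end of winter, so that hibernation and season cannot be told apart.

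A miRNA is cut from both sides of a hairpin, and the side kept by the silencing complex (usually only one of the 5p and 3p arms) finds its targets with a seed, bases 2 to 8. The genes of miR-10 lie inside the Hox clusters, which lay out the head to tail axis, and in mammals miR-10 is typical of trunk tissues and scarce in the brain. miR-100 belongs to the same ancient family as miR-10 and is known for repressing mTOR, while miR-125 is the vertebrate relative of lin-4, the first miRNA found. In mammals, a miR-99 or miR-100 gene, a let-7 gene and a miR-125 gene often stand in a row on one chromosome.

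The 5 listed sequences are shown because every count below is a count of these letters, written 5′ to 3′ with the seed in capitals:

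miR-10-5p: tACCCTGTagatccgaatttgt

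miR-10-3p: cAAATTCGtatctaggggaa

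miR-100-5p: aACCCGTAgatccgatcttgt

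miR-100-3p: cAAGCTCGcttctatgggtct

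miR-125-3p: aCAAGTCAggctcttgggacct

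The seeds of miR-10-5p, miR-10-3p, miR-100-5p and miR-125-3p were each held by 1 of all listed miRNAs. The seed of miR-100-3p was held by 2 of them, and the second was a bat-specific miRNA of 23 nt, cAAGCTCGcttctatgggtctgt, which is miR-100-3p with 2 more bases at its end and which the study placed in the same hairpin. The study placed the hairpins of miR-100, miR-125 and miR-7b, a member of the let-7 family, on one scaffold of the Myotis lucifugus genome and the hairpin of miR-10 on another, all outside genes. From knowledge of other mammals, the listed miR-100 letters are those called miR-99a there, and miR-7b-5p (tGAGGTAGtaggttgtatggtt) has the letters of let-7c.

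The libraries held 12159756 (HB), 10007650 (AB), 11542470 (HA) and 11437337 (AA) clean reads of 18 to 30 nt, of which tags identical to the listed miRNAs made up 20.9%, 24.01%, 13.2% and 20.9%. Brain markers (miR-124a-3p, miR-9-3p, miR-219-3p and miR-153-3p) summed to 37640 and 50190 RPM (reads per 1000000 clean reads) in HB and AB and to 26.1 and 28.1 in HA and AA. The muscle list, led by miR-1-3p, reached 17410 and 18250 RPM in HA and AA against 1948 and 1605 in HB and AB, and the blood list reached 240.1 and 235.6 against 23.6 and 38.6. The stromal list, nearly all miR-199-3p, reached 13550 in HA and 40110 in AA against 525.8 and 802.5 in brain, and the epithelial list reached 10.2, 30.3, 25.9 and 2.45 in HB, AB, HA and AA. The part of these other cell types in the results below was not tested, and in bulk tissue fewer cells of a type and less RNA per cell cannot be told apart.

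miR-100-5p was one of the most abundant miRNAs in every library, while by identical tags its own 3′ arm and the other 3 members were scarce or confined mostly to one tissue. The identical tag of miR-100-5p had 221291 (HB) and 220756 (AB) reads in brain and 111620 (HA) and 297206 (AA) reads in WAT. It ranked 5th, 5th, 6th and 4th in HB, AB, HA and AA and made up 8.69%, 9.19%, 7.34% and 12.4% of the reads of all listed miRNAs. The level was 18199 and 22059 RPM in HB and AB and 9670 and 25986 in HA and AA, an order AA, AB, HB, HA in which no 2 neighbouring 95% Poisson intervals overlapped. By the first 18 nt the last 2 changed places, again without overlap, with 36940 RPM in HA and 35904 in HB. The shares of the listed reads were then 9.19% in HA and 5.43% in HB. These intervals, like all intervals given here, cover counting error only, because amplified reads are not independent molecules and no second library shows the spread between bats.

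miR-10-5p was a WAT miRNA in these libraries. Its identical tag had 15 (HB) and 52 (AB) reads in brain and 1655 (HA) and 1097 (AA) reads in WAT, that is 1.23 (95% interval 0.690 to 2.03), 5.20 (3.88 to 6.81), 143.4 (136.6 to 150.5) and 95.9 (90.3 to 101.8) RPM. The order HA, AA, AB, HB had no overlap between neighbouring intervals. Among the listed miRNAs it ranked 128th in HB and 91st in AB but 23rd in HA and 31st in AA.

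miR-10-3p was hardly detected. Its identical tag had 2 reads in AA and 0 in HB, AB and HA. The limit that a count of 0 leaves is 3 reads, or 0.247, 0.300 and 0.260 RPM in HB, AB and HA. Tags that began with its first 18 nt numbered 0, 0, 3 and 8 in HB, AB, HA and AA, and tags that contain its bases 2 to 17 numbered 0, 1, 5 and 11, so that all but 1 of these reads were in WAT.

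miR-100-3p was found at a low level in all 4 libraries. It had 42 (HB) and 43 (AB) reads in brain and 21 (HA) and 73 (AA) reads in WAT, or 3.45 (2.49 to 4.67), 4.30 (3.11 to 5.79), 1.82 (1.13 to 2.78) and 6.38 (5.003 to 8.03) RPM. Neighbours in the order AA, AB, HB, HA overlapped in their intervals, although AA and HA did not.

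miR-125-3p depended most on which tags were counted. Its identical tag had 21 (HB) and 35 (AB) reads in brain and 3 (HA) and 20 (AA) reads in WAT, or 1.73, 3.497, 0.260 and 1.75 RPM. Tags that shared its first 18 nt had 2038, 1949, 541 and 1049 reads, or 167.6 (160.4 to 175.0), 194.8 (186.2 to 203.6), 46.9 (43.0 to 51.0) and 91.7 (86.3 to 97.4) RPM. By this count the order was AB, HB, AA, HA with no overlap, and both brain libraries lay above both WAT libraries.

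**Figure D1:**
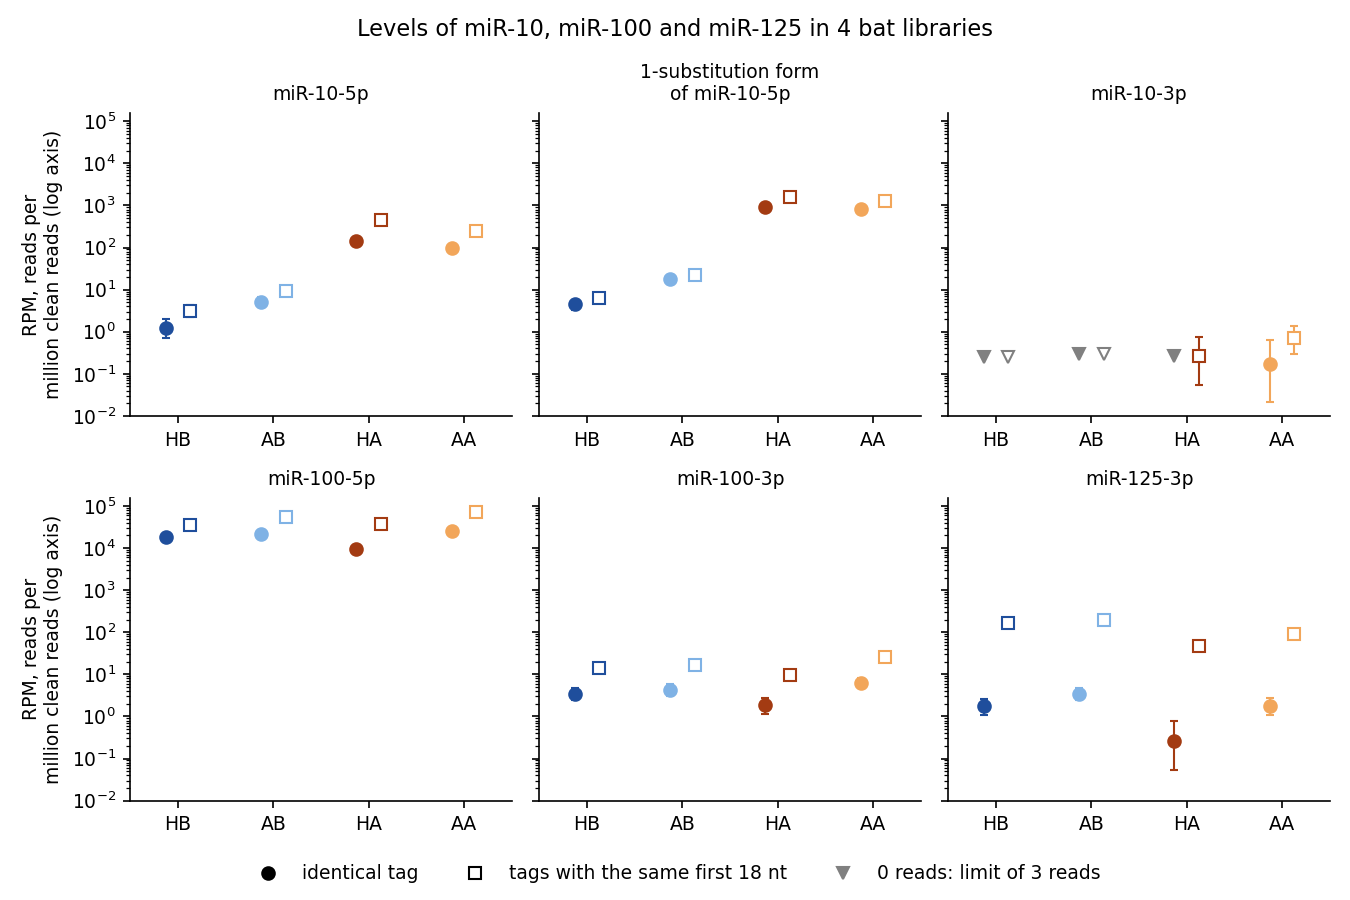
Level (RPM, reads per 1000000 clean reads, log axis) of the 5 miRNAs and of a form of miR-10-5p with 1 substitution in each of the 4 libraries; filled circles count the identical tag, open squares count tags with the same first 18 nt, bars are 95% Poisson intervals and triangles mark the limit of 3 reads where a count was 0. miR-10-5p lies between 95.9 and 143.4 in WAT and between 1.23 and 5.20 in brain, and miR-125-3p moves from 1.73 to 167.6 in HB when tags with the same first 18 nt are counted.

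The first comparison asked how the members differed between hibernating and active brain. A ratio of 2 libraries was scaled by TMM (the trimmed mean of M values, from edgeR) over all listed miRNAs, and a size of 1 on the log2 scale (2-fold) was used to call it. Of 153 listed miRNAs with 10 or more reads over HB and AB, 62 (40.5%) were past that size, and 35 (22.9%) were higher and 27 (17.6%) lower in HB. Of the 5 members 4 could be compared, and 1 of them, miR-10-5p, was past it.

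miR-10-5p was 3.44-fold lower in HB than in AB (log2 ratio −1.78, 95% interval −2.72 to −0.93), from 15 against 52 reads. Only 12 of the 153 miRNAs had a lower ratio. Counted by the first 18 nt, with 38 against 93 reads, the ratio was −1.55 (−2.14 to −0.99), and by bases 2 to 17, with 81 against 145 reads, it was 2.02-fold (−1.02, −1.43 to −0.61). Marker lists of other cells differed as well, in both directions. In RPM of HB against AB, the epithelial list stood at 10.2 against 30.3, the blood list at 23.6 against 38.6 and the stromal list at 525.8 against 802.5. The muscle list was higher in HB, at 1948 against 1605. Members of a list could also disagree, as in blood, with 136 against 59 reads for miR-142-5p and 149 against 326 for miR-486-5p.

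miR-100-5p had almost the same scaled level in both brain libraries by its identical tag, with a log2 ratio of 0.01 (0.004 to 0.02). By the first 18 nt, with 436585 against 560410 reads, it was −0.62 (−0.63 to −0.62), and by clean reads in place of TMM the identical tag gave −0.28, so the sign of this ratio rested on the tags and the scaling. The ratio of miR-100-3p was −0.02 (−0.67 to 0.62) and that of miR-125-3p −0.73 (−1.58 to 0.09), and both intervals held 0. With the first 18 nt, miR-125-3p gave −0.20 (−0.29 to −0.11).

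In WAT the direction of miR-10-5p was the opposite. Of 142 listed miRNAs compared between HA and AA, 70 (49.3%) were past the size, 29 (20.4%) higher and 41 (28.9%) lower in HA. Of the 4 members that could be compared, 3 were past it, all lower in HA, and these were miR-100-5p, miR-100-3p and miR-125-3p. This count rested on the processing: with the first 18 nt 5 members were compared and 3 were past the size, 1 higher (miR-10-5p) and 2 lower, and with TMM over the conserved miRNAs alone 2 of 4 were, 1 in each direction. Marker miRNAs of other cells moved as well: the epithelial miR-200b-3p had 269 reads in HA against 28 in AA, while of the stromal list miR-199-3p had 156158 against 458628 and miR-145-3p 218 against 173.

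miR-10-5p was 1.90-fold higher in HA than in AA (log2 ratio 0.93, 0.82 to 1.04), just inside the size of 1. It was past that size in 5 of 6 other ways of counting or scaling and at 0.58 when scaled by clean reads. By the first 18 nt, 5093 reads in HA stood against 2787 in AA (log2 ratio 1.11, 1.04 to 1.18).

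miR-100-5p was 2.11-fold lower in HA than in AA (log2 ratio −1.08, −1.09 to −1.07). The ratio kept its sign in all 6 alternatives, from −0.30 with TMM over the conserved miRNAs alone to −1.43 with clean reads, but it was past the size in 1 of them, clean reads. miR-100-3p was 2.75-fold lower in HA (−1.46, −2.24 to −0.74), and with TMM over the conserved miRNAs alone its ratio was −0.68 (−1.46 to 0.03). The ratio of miR-125-3p was −2.40 (−4.79 to −0.65) from 3 against 20 reads, and with the first 18 nt, from 541 against 1049 reads, it was −0.71 (−0.87 to −0.56), which is not past the size.

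The widest differences of miR-10-5p were between the tissues. Of 159 listed miRNAs compared between AA and AB, 74.8% were past the size of 1 (36.5% higher and 38.4% lower in AA), and between HA and HB 121 (76.1%) of 159 were (35.2% higher and 40.9% lower in HA), so a difference of this size between brain and WAT was common among the listed miRNAs. Of 4 members compared, 1 was past it between the active libraries and 2 between the hibernating libraries.

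miR-10-5p was 19.7-fold higher in AA than in AB (log2 ratio 4.30, 3.90 to 4.73), and 13 of the 159 miRNAs had a higher ratio. In the hibernating libraries it was 124-fold higher in HA than in HB (log2 ratio 6.96, 6.23 to 7.80). The smaller level in HB and the larger level in HA both enter this value. It was the highest ratio of the 159 by identical tags, where 3 reads stood for a count of 0. This rank rested on the count used. By identical tags miR-365-5p had 0 reads in HB and 108 in HA, so its ratio was limited by those 3 reads. By the first 18 nt miR-365-5p had 17 reads in HB and 5480 in HA. miR-10-5p had 38 and 5093, a smaller difference, so it was not the highest by that count.

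miR-100-5p differed little between the tissues. Its identical tag gave 0.33 (0.32 to 0.34) for AA against AB and −0.82 (−0.83 to −0.81) for HA against HB, and the second of these turned to 0.14 with the first 18 nt. miR-100-3p gave 0.66 (0.10 to 1.24) and −0.83 (−1.66 to −0.04). miR-125-3p was lower in WAT in both states, at −0.91 (−1.78 to −0.07) for AA against AB and −2.64 (−5.03 to −0.89) for HA against HB, and at −0.96 (−1.07 to −0.85) and −1.74 (−1.88 to −1.60) with the first 18 nt. The last 2 comparisons share a library with each of the first 2, so the 4 ratios of a miRNA are not independent.

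**Figure D2:**
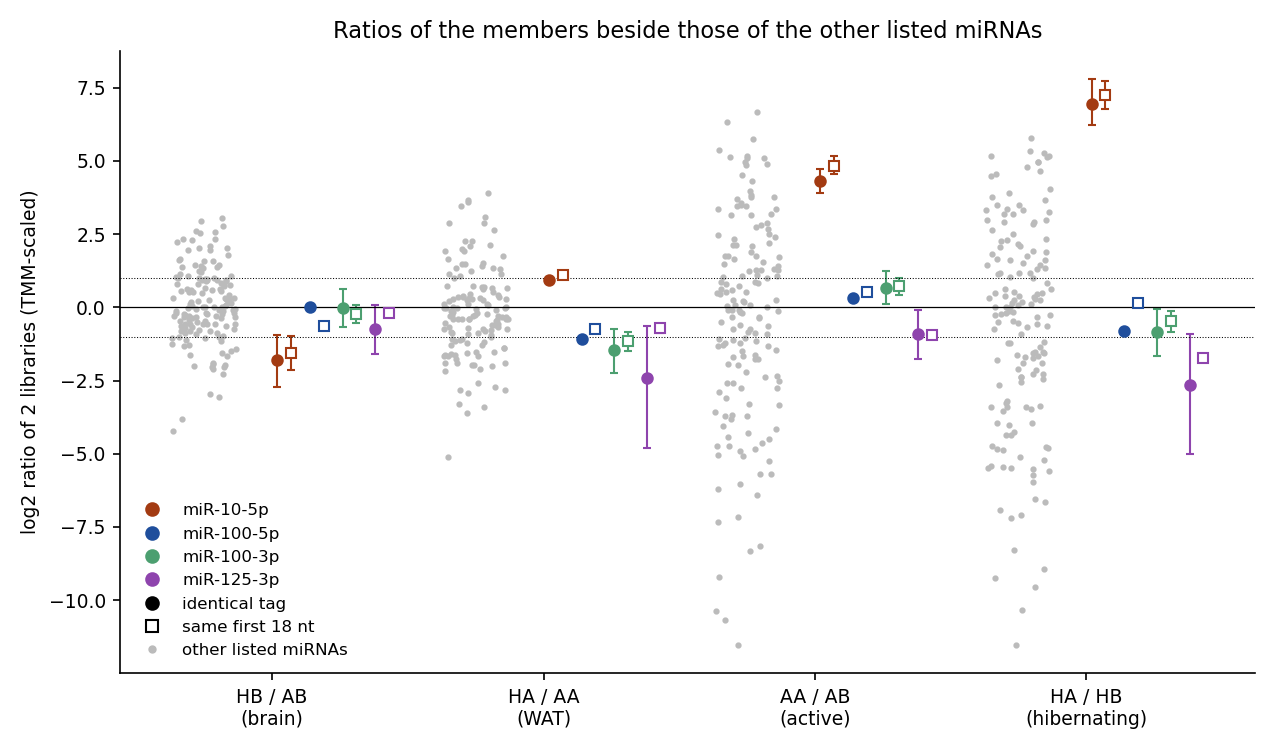
TMM-scaled log2 ratios of the 4 members that could be compared in 4 pairs of libraries, with 95% counting intervals; filled circles count the identical tag, open squares tags with the same first 18 nt, grey points are the other listed miRNAs with 10 or more reads over the pair, and dotted lines mark a size of 1. miR-10-5p stands at −1.78 in brain, 0.93 in WAT, 4.30 between the active tissues and 6.96 between the hibernating tissues, while miR-100-5p stays between −1.08 and 0.33.

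The arm balance was next taken within each library, where scaling does not enter. The 3′ arm of miR-100 made up 0.0190% (0.0137% to 0.0256%, Clopper-Pearson interval) of the reads of both arms in HB and 0.0195% (0.0141% to 0.0262%) in AB. In WAT it was 0.0188% (0.0116% to 0.0288%) for HA and 0.0246% (0.0192% to 0.0309%) for AA. That is 1 read of the 3′ arm for every 4071 to 5315 reads of the 5′ arm, and the 4 intervals overlapped. With the first 18 nt of each arm the shares were 0.0398%, 0.0303%, 0.0260% and 0.0345%, and the interval of HB (0.0341% to 0.0462%) lay above that of HA (0.0214% to 0.0313%).

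For miR-10 the share of the 3′ arm could be bounded closely only in WAT. In AA, 2 reads of the 3′ arm stood beside 1097 of the 5′ arm, a share of 0.182% (0.0220% to 0.656%). In HA it was 0 of 1655, with an upper bound of 0.223% by the same interval, and in HB and AB, with 15 and 52 reads of the 5′ arm, the upper bound was 21.8% and 6.85%. The limit of 3 reads corresponds to 0.181%, 20% and 5.77% in HA, HB and AB and to 0.273% in AA, so the 2 reads in AA lie under it. By identical tags, an arm as rare as that of miR-100 was therefore not detectable for miR-10 in brain or in WAT at this depth. With the first 18 nt, 8 reads of the 3′ arm stood beside 2787 of the 5′ arm in AA. That is a share of 0.286% (0.124% to 0.563%), above the limit of 0.107% and above the interval of miR-100 in AA (0.0306% to 0.0387%). In HA it was 3 reads beside 5093, at the limit.

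For miR-125 the study listed the 3′ arm only, so its partner was looked for among the tags. Of 1909 tags of 20 to 24 nt with 1000 or more reads over the 4 libraries, those closest to the reverse complement of miR-125-3p stood at an edit distance of 7, and 14 tags tied at it. For miR-10 and miR-100 the listed 5′ arm was the most abundant of 2 and of 24 tied tags. With tags of 100 or more reads this still held for miR-10, but for miR-100 none of the 7 closest tags was the listed arm. The most abundant of the 14 is shown with its seed in capitals, because it is the 5′ arm that the balance below uses:

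5′ arm found for miR-125: tCCCTGAGaccctaacttgtga

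From knowledge of other mammals this is miR-125b-5p, which can come from more than one hairpin. Its duplex with miR-125-3p was computed at −20.3 kcal/mol, but a tied tag of other letters, tgaggggcagagagcgagacttt, reached −20.2 kcal/mol, so that the pairing alone did not single it out. It had 14987 (HB) and 19338 (AB) reads in brain and 8258 (HA) and 15827 (AA) reads in WAT, or 1233, 1932, 715.4 and 1384 RPM. Its ratio was −0.36 (−0.39 to −0.33) for HB against AB and −0.60 (−0.64 to −0.56) for HA against AA, and WAT stood below brain in both states, at −0.39 and −0.69.

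Beside this 5′ arm, the listed miR-125-3p tag made up 0.140% and 0.181% in brain (HB and AB) and 0.0363% and 0.126% in WAT (HA and AA). With the first 18 nt of each arm the 3′ arm took 5.16% (4.94% to 5.38%) in HB and 3.66% (3.502% to 3.82%) in AB, beside 3.14% (2.88% to 3.41%) in HA and 3.28% (3.09% to 3.48%) in AA. HB stood above the other 3 libraries without overlap. By this count the share of the 3′ arm of miR-125 was above that of miR-100 in every library and above that of miR-10 in both WAT libraries, with 18.4 to 30.9 reads of the 5′ arm for each read of it.

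**Figure D3:**
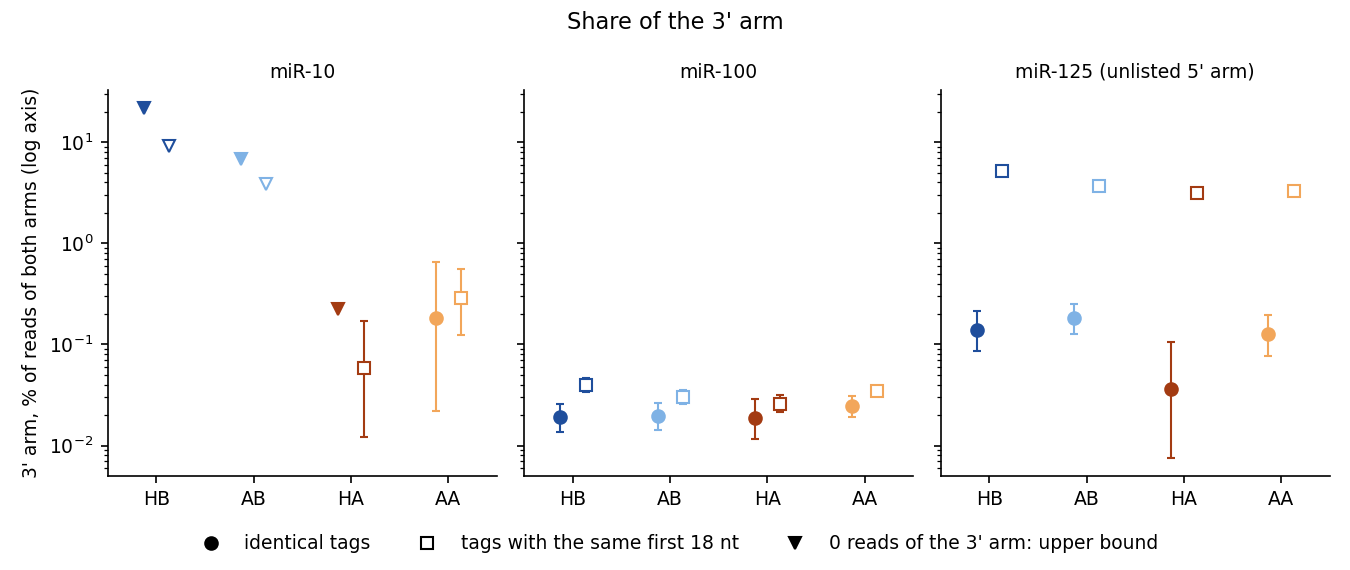
Reads of the 3′ arm as a percentage of the reads of both arms (log axis) for the hairpins of miR-10, miR-100 and miR-125 in the 4 libraries; filled circles count identical tags, open squares tags with the same first 18 nt, bars are 95% Clopper-Pearson intervals and triangles the upper bound where the 3′ arm had 0 reads. miR-100 lies between 0.0188% and 0.0398%, and miR-125 rises from at most 0.181% to at least 3.14% with the first 18 nt.

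The 3′ ends of miR-100-5p differed between the libraries. Its 3 most abundant tags are shown because they took different shares, with a base added to the listed sequence in capitals:

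listed, 21 nt: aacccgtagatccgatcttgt

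extended, 22 nt: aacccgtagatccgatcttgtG

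shortened, 20 nt: aacccgtagatccgatcttg

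The listed tag made up 50.7% of the reads with the same first 18 nt in HB and 39.4% in AB, but 26.2% and 35.2% in HA and AA. The extended tag made up 21.8%, 41.0%, 36.4% and 43.8%, and it was the most abundant tag in AB, HA and AA, whereas the listed tag was the most abundant in HB. The shortened tag made up 13.1% in HB and 12.5% in HA against 7.03% in AB and in AA. All of these shares rest on 426375 or more reads. Of the reads with exactly 1 base added to the listed tag, 97.7% to 99.1% in the 4 libraries had a G, and 0.666% to 1.98% had an A. Whether that G is written in the genome was not analysed here. The study reports the lowest RNA integrity for the AA pool. It also reports a larger share of ribosomal RNA in the hibernating than in the active library of each tissue. The part of RNA quality in these 3′ ends was not tested.

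**Figure D4:**
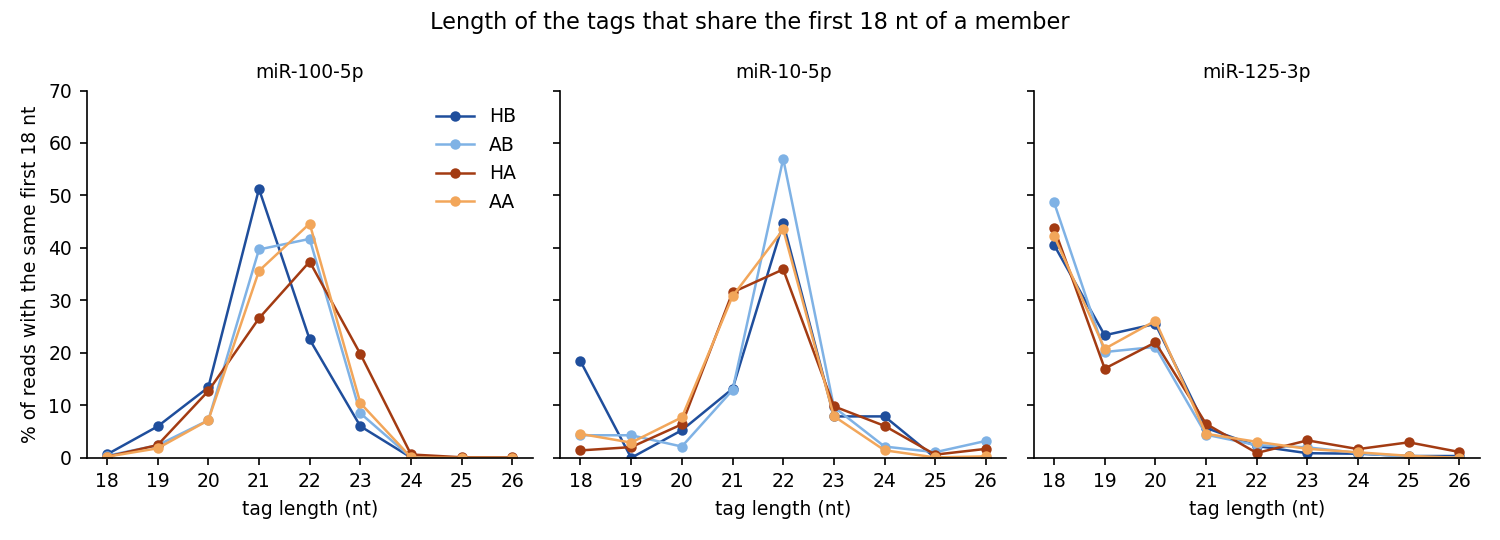
Percentage of reads by tag length (nt) among tags with the same first 18 nt as miR-100-5p, miR-10-5p and miR-125-3p, with 1 line for each library. miR-100-5p peaks at 21 nt in HB (51.2%) and at 22 nt in AB, HA and AA, miR-10-5p peaks at 22 nt in all 4 libraries, and miR-125-3p peaks at 18 nt, the shortest length kept.

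Because of this the direction of miR-100-5p between states depended on the tag. In brain, the extended tag had 95244 reads in HB and 229576 in AB, a log2 ratio of −1.26 (−1.27 to −1.25). The listed tag gave 0.01 in the same libraries, and the shortened tag, with 57336 and 39406 reads, gave 0.55 (0.53 to 0.57). In WAT, the ratios of HA to AA were −0.92 for the extended tag, −1.08 for the listed tag and 0.18 for the shortened tag (−0.17 by clean reads). In HA against HB the extended tag gave 0.87 and the listed tag −0.82, which are opposite directions, under all 5 scalings, for tags that differ by 1 base.

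The mean tag length of miR-100-5p was 21.08 and 21.46 nt in brain (HB and AB) and 21.62 and 21.54 nt in WAT (HA and AA). The difference of HB from AB was −0.385 nt, and 5 of 77 conserved miRNAs that reached 100 reads in each had a lower one. Over the 77 the median difference was −0.0734 nt and 53 (68.8%) were below 0, so most miRNAs were slightly shorter in HB. miR-100-3p moved the same way, from 21.46 nt in AB to 20.98 in HB (−0.488 nt, 3 of 77 lower), but miR-125-3p was 0.142 nt longer in HB. Between HA and AA, miR-100-5p differed by 0.0731 nt and miR-10-5p by 0.551 nt, beside a median of 0.189 nt over 67 miRNAs of which 12 were below 0.

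**Figure D5:**
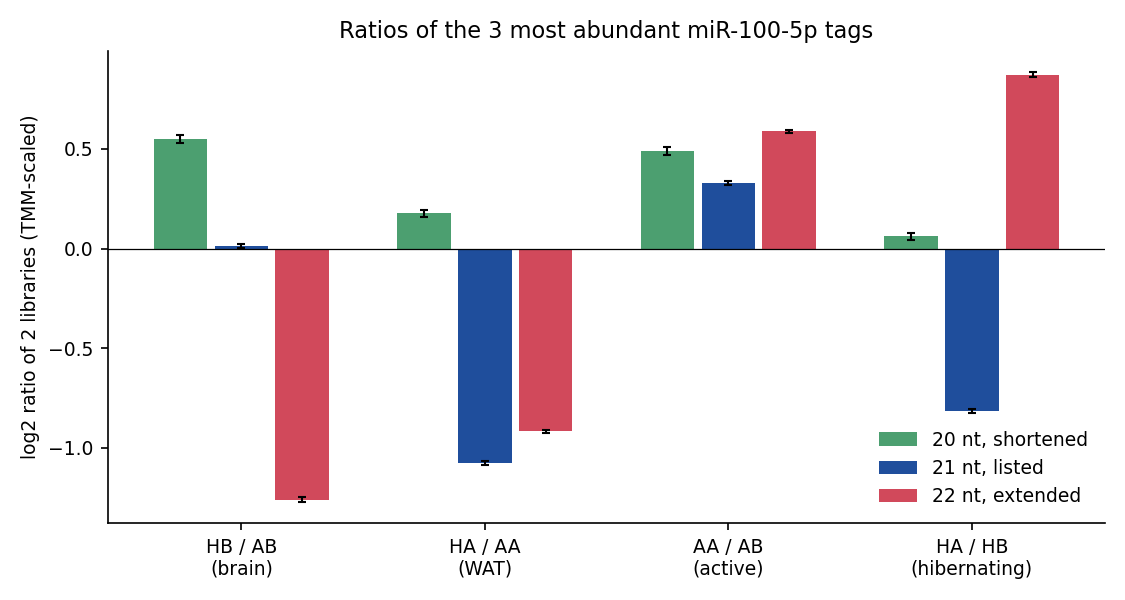
TMM-scaled log2 ratios of the 3 most abundant miR-100-5p tags in 4 pairs of libraries, with bars from 0 and 95% counting intervals. In brain the extended tag stands at −1.26, the listed tag at 0.01 and the shortened tag at 0.55, and between the hibernating tissues the extended tag stands at 0.87 and the listed tag at −0.82.

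The other members had their own 3′ forms. For miR-10-5p the listed tag was the most abundant in each library, with 39.5%, 55.9%, 32.5% and 39.4% of the reads of its first 18 nt in HB, AB, HA and AA. The tag 1 base shorter, taccctgtagatccgaatttg, had 30.8% in HA and 30.1% in AA but 13.2% of 38 reads in HB and 12.9% of 93 reads in AB. Extended tags made up 20.3% (19.2% to 21.4%) in HA and 10.3% (9.16% to 11.4%) in AA.

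For miR-100-3p, 24.1%, 25.3%, 18.9% and 25.1% of the reads with its first 18 nt were the listed tag in HB, AB, HA and AA. Extended tags took 38.5% and 52.9% in HB and AB and 59.5% and 56.0% in HA and AA. The bat-specific miRNA of 23 nt is one of them, with 14, 24, 19 and 51 reads in HB, AB, HA and AA beside 42, 43, 21 and 73 of miR-100-3p, and a tag of the same length, caagctcgcttctatgggtctGA, had 26, 26, 27 and 58. AA had the most reads of both listed sequences.

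The listed miR-125-3p tag was a minor form. It made up 1.03%, 1.80%, 0.555% and 1.91% of the reads with its first 18 nt in HB, AB, HA and AA, whereas the median share of the listed tag was 29.8% to 34.7% over 69 to 81 conserved miRNAs with 100 or more such reads. At most 3 of those miRNAs had a lower share in any library. The 3 most abundant tags were shorter by 4, 3 and 2 bases:

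shortened, 18 nt: acaagtcaggctcttggg

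shortened, 19 nt: acaagtcaggctcttggga

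shortened, 20 nt: acaagtcaggctcttgggac

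The tag of 18 nt alone had 827, 949, 237 and 444 reads, 40.6% to 48.7% of the total. Since the files hold no tag under 18 nt, shorter forms were not seen. Between states its ratio was −0.19 (−0.33 to −0.05) in brain and −0.57 (−0.80 to −0.34) in WAT.

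The starts of the tags were also compared, a measure added after the data were seen. Of all reads that held bases 2 to 17 of miR-100-5p, 99.7% or more began at its first base in each library. For miR-10-5p, 53.1% (41.7% to 64.3%) began 1 base later in HB and 35.2% (27.4% to 43.5%) in AB, beside 22.4% (21.4% to 23.5%) in HA and 19.7% (18.4% to 21.1%) in AA. Such a tag, shown because its seed differs from that of the listed miRNA, reads:

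miR-10-5p beginning 1 base later: aCCCTGTAgatccgaatttgt

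The share was higher in both brain libraries than in both WAT libraries, although the brain shares rest on 81 and 145 reads. For miR-100-3p the share that began 1 base later was 21.1%, 18.6%, 13.8% and 13.6% in HB, AB, HA and AA. For miR-125-3p, 10.4%, 11.7%, 6.73% and 8.33% began earlier than the listed first base.

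Finally, tags that differed from a member by a single substitution in the first 18 nt were counted, since close relatives of a miRNA differ in this way. Substitutions are given as listed base, position from the 5′ end and observed base. For miR-10-5p, 8 of 54 such starts reached 1% of its own reads in some library, and 1, T12A, exceeded miR-10-5p itself. In HA and AA, where miR-10-5p had more reads, 2 starts reached 1%, T12A and A17C, and the other 6 passed on 1 or 2 reads in brain. Its most abundant tag is shown with the substituted base in capitals:

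T12A form of miR-10-5p: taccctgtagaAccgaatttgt

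From knowledge of other mammals the listed letters are miR-10a-5p and the T12A letters are miR-10b-5p, which keeps the same seed, and the T12A form was not among the listed sequences. It had 54 (HB) and 176 (AB) reads in brain and 10408 (HA) and 9292 (AA) reads in WAT, or 4.44, 17.6, 901.7 and 812.4 RPM. By the first 18 nt it stood at 2.05 (1.38 to 3.11) times miR-10-5p in HB and 2.36 (1.84 to 3.04) times in AB. The same ratio was 3.64 (3.53 to 3.75) in HA and 5.15 (4.95 to 5.37) in AA. In WAT its excess over miR-10-5p was thus smaller in HA than in AA, without overlap.

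The T12A form followed the same order of tissues as miR-10-5p. Its ratio was −1.70 (−2.16 to −1.25) for HB against AB. For HA against AA it was 0.50 (0.46 to 0.54), and it ran from 0.15 by clean reads to 1.28 with TMM over the conserved miRNAs alone. It was 5.62 (5.41 to 5.85) for AA against AB and 7.76 (7.38 to 8.17) for HA against HB, each above the ratio of miR-10-5p in the same pair. Of the reads that held bases 2 to 17 of the T12A form, 29.5%, 22.3%, 19.1% and 14.3% began 1 base later in HB, AB, HA and AA. The interval of AB (17.6% to 27.7%) held the share of HA, so the tissues were less apart here than for miR-10-5p.

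No substitution of miR-100-5p reached 1% of its reads in any library. The most abundant over the 4 libraries and in both WAT libraries was A15C, with 2865, 2248, 3833 and 8352 reads in HB, AB, HA and AA, or 0.656%, 0.401%, 0.899% and 0.989%. A1G was the most abundant in both brain libraries and went the other way between tissues, with 0.980% and 0.786% in HB and AB against 0.237% and 0.166% in HA and AA. In other mammals miR-100-5p differs from the letters listed here by T16A. T16A had 155, 180, 145 and 237 reads, or 0.0355%, 0.0321%, 0.0340% and 0.0281% of the listed start, beside 0.0976% to 0.180% for T16C and 0.00928% to 0.0158% for T16G at the same base. For miR-100-3p, miR-125-3p and miR-10-3p 1 substitution each reached 1%, on 9 reads for A3C of miR-100-3p, 46 reads for G18A of miR-125-3p and 1 read for G18A of miR-10-3p over the 4 libraries.

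Of the miRNAs that the study placed beside miR-100 and miR-125, miR-7b-5p had 133676 (HB) and 200325 (AB) reads in brain and 118816 (HA) and 249770 (AA) reads in WAT. Its ratios were −0.57 (−0.58 to −0.56) for HB against AB and −0.74 (−0.75 to −0.73) for HA against AA, beside 0.01 and −1.08 for miR-100-5p and −0.36 and −0.60 for the 5′ arm found for miR-125. In WAT all 3 were thus lower in HA by the identical tag, but the median ratio of the 142 listed miRNAs compared was also below 0 (−0.29). With TMM over the conserved miRNAs alone miR-7b-5p came to 0.04 and the 5′ arm found for miR-125 to 0.18. The first 18 nt of miR-7b-5p are shared with other let-7 sequences, so no count of it by start is given. miR-7b-3p had 4, 4, 0 and 2 reads, so that the 3′ arm was the rarer one in this hairpin too.

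By likeness over the 4 libraries, the miRNAs nearest to miR-100-5p among 130 with 100 or more reads were miR-100-3p (Euclidean distance 0.305 between TMM-scaled log2 RPM, each centred on its own mean), miR-361-5p (0.592) and miR-7b-5p (0.596). Nearest to miR-10-5p were miR-365-5p (1.204), a bat-specific miRNA with the sequence gATCGGGCctaaaccggcagtt (1.27) and miR-199-5p (1.62). miR-365-5p had 0, 3, 108 and 113 reads in HB, AB, HA and AA, the bat-specific miRNA 22, 36, 747 and 1157, and miR-199-5p 16, 22, 442 and 988. All 3 were, like miR-10-5p, much higher in both WAT libraries than in both brain libraries. Since they were picked by these same values, this shared pattern was fixed by the choice and is not a separate result.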

How the data were processed

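Small RNA was sequenced on the Solexa platform in 4 libraries, and the deposited tags ran from 18 to 30 nt. According to the study's methods, adapter sequence, reads of low quality and inserts shorter than 18 nt were discarded, and the authors deposited distinct tags with their raw read counts. The deposited tags and reads are slightly fewer than the clean totals the study states, and all levels here use the deposited totals. A member's count was that of the tag identical to its listed mature sequence, with tags sharing its first 18 nt, or containing bases 2 to 17, as alternatives. All 5 members were found as identical tags, and 3 had over 3 reads in every library. Ratios used TMM factors from edgeR 4.0.16 in R 4.3.3, computed over all listed miRNAs, with 95% Clopper-Pearson intervals, and DESeq2 1.42.0 gave another scaling. Ratios with 3 or fewer reads in both libraries were not computed, and 3 reads stood for a count of 0. Levels carry exact Poisson intervals. Simulated 4-fold changes on the listed miRNAs were recovered in 60 of 60 cases for HB against AB (154 miRNAs), and 4 of 94 unchanged miRNAs passed the size. For HA against AA (143 miRNAs) these were 60 of 60 and 5 of 83. The simulation had counting error only and as many raised as lowered miRNAs, so it cannot show which scaling holds for the real libraries. Tests were not run, since each condition had 1 library, although the study's methods name one. Candidate 5′ arms were aligned with edlib 1.3.9.post1 and duplexes computed with RNAduplex 2.7.2 in Python 3.11.15. Named miRNAs were the 5 members, those of the miR-100 and miR-125 scaffold, the 3 nearest by likeness, the most abundant substitution and the 3 most abundant tags of each member. The members and lists were chosen with earlier results of these data known, and A1G, the T16 substitutions, the second tied tag and the duplex energies, tag lengths, tag starts and tag ratios were chosen after the values were seen.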

Additional observations from a re-analysis of the deposited data

Results flagged for a closer look

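The log2 ratio of hibernating to active libraries had opposite signs in brain and WAT for 3 sequences, with counting intervals on opposite sides of 0. For miR-10-5p it was 0.93 in WAT and −1.78 in brain, a difference of 2.71, which stayed between 2.07 and 3.36 over all other ways of counting and scaling. For its T12A form it was 0.50 in WAT (0.15 by clean reads) and −1.70 in brain, a difference of 2.20. For miR-100-5p it was −1.08 and 0.01, a difference of −1.09, which came to −0.12 with tags sharing the first 18 nt. Its brain ratio was below 0, as in WAT, with the first 18 nt (−0.62), bases 2 to 17 (−0.53), clean reads (−0.28) and reads of the listed miRNAs (−0.08), and 0.00 with DESeq2 scaling, so the opposite signs of miR-100-5p rest on the processing. With 1 library for each condition none of these differences was tested.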

How the results depend on the processing

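No paired analysis was possible because each condition had 1 library and no replicate numbers (the bats shared by the 2 tissues of a state were pooled), and for the same reason no replicate could be left out. Intervals cover counting error only, and ratios of miR-125-3p and miR-100-3p rest on few reads. Of 96 alternative ratios of the members, 64 lay within the interval of the reported ratio and 7 changed sign, 6 of miR-100-5p and 1 of miR-100-3p (HB against AB, 0.11 with TMM over the conserved miRNAs alone). The 64 reflect the width of the intervals and do not measure stability. For HA against AA, −0.71 of miR-125-3p (first 18 nt) lay within its wide interval of −4.79 to −0.65. In the same pair −0.83 of miR-100-5p (DESeq2) lay outside its narrow interval of −1.09 to −1.07. The sign changes of miR-100-5p were HB against AB by clean reads (−0.28), by reads of the listed miRNAs (−0.08), with the first 18 nt (−0.62) and with bases 2 to 17 (−0.53), and HA against HB with the first 18 nt (0.14) and bases 2 to 17 (0.32). By tag, chosen after seeing the data, the tag of 22 nt gave −1.26 for HB against AB and 0.87 for HA against HB, and the tag of 20 nt 0.18 for HA against AA and 0.06 for HA against HB. miR-7b-5p gave 0.04 for HA against AA with TMM over the conserved miRNAs alone. The members past the size numbered 2 in place of 1 for HB against AB by clean reads, and for AA against AB 2 by clean reads and DESeq2 and 3 with bases 2 to 17. The cause was not tested. TMM over the conserved miRNAs alone moved every HA against AA ratio by 0.78 and clean reads by −0.35 (log2), and for HB against AB clean reads moved them by −0.29. The called miRNAs numbered 35 higher and 27 lower in HB (26 and 37 by clean reads, 21 and 28 with the first 18 nt) and 29 higher and 41 lower in HA (23 and 54 by clean reads, 33 and 31 by reads of the listed miRNAs, 51 and 19 with TMM over the conserved miRNAs). A size of 2 in place of 1 left 21 called in brain and 26 in WAT. The share of the 3′ arm of miR-100 over the 4 libraries, 0.0210%, was 0.0329% with the first 18 nt and 0.0394% with bases 2 to 17. The listed tag's share for miR-10-5p, 35.2% over the 4 libraries, was 36.9% among tags of 10 or more reads. The 5′ arm found for miR-125 had 58410 reads, and 136391 with the first 18 nt. Substituted starts numbered 11 at 1% of the member and 2 at 10%.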
